A study of Mus musculus with 103 samples.

Results

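The 78 genes described here are the histone genes of mouse embryonic fibroblasts (MEFs). They were chosen by symbol: every gene whose name begins with Hist1h, Hist2h, Hist3h, Hist4h, H2af or H3f3, among the 23339 genes of the RNA-seq tables. The GRO-seq tables held 70 of them among 20282 genes. Of the 78, 68 were classed as replication-dependent histone genes by a Hist symbol (54 of the Hist1 cluster, 10 of Hist2, 3 of Hist3 and 1 of Hist4) and 10 as variant genes (8 named H2af and 2 named H3f3). The class rests on the symbol alone, so any variant gene with a Hist symbol counts as replication-dependent. By symbol, 6 were genes of the linker histone H1, 26 of H2A, 19 of H2B, 14 of H3 and 13 of H4. Among these, Hist3h2bb-ps is a pseudogene by its name, and H2afy3 stood in the tables under an identifier of the non-coding RNA class.

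All cells were C57BL/6 fibroblasts from E13.5 embryos, held in quiescence for 10 d. The study removed CTCF, which binds insulators and loop anchors, the cohesin subunit Smc3, or Wapl, which releases cohesin from chromatin. RNA-seq measured polyadenylated RNA, and GRO-seq measured nascent RNA that engaged polymerases extend in isolated nuclei. Wild-type cells (2 clones), Ctcf fl/fl cells (2 clones) and Ctcf fl/fl Wapl fl/fl cells were left untreated or were exposed for 4 h to Adeno-Cre, an adenovirus that carries Cre recombinase. Cells with Rosa26 CreER/+, a tamoxifen-activated Cre, were left untreated or given 4'-hydroxytamoxifen (OHT) for 2 to 3 d. These were 2 control clones without a floxed gene, 4 Smc3 clones (clone 1 fl/fl, clones 2 to 4 fl/-) and 2 Wapl fl/- clones, so that untreated Wapl cells and 3 of the 4 untreated Smc3 clones already lacked 1 allele. Each group held 1 RNA-seq library per clone, except that the Ctcf fl/fl Wapl fl/fl cells had 2 untreated libraries (clones 3 and 4) and 1 Adeno-Cre library (clone 4). The GRO-seq libraries of this genotype came from clones 1 and 2, pooled in 1 column per condition, and 1 library each from cells given Adeno-Cre and then DRB for 3.5 h, or DRB for 3.5 h followed by 1 d without it. GRO-seq was also made of wild-type clone 1, untreated and after Adeno-Cre, and of Cre-ER clone 1, untreated and after OHT. A further column is named wild-type only. Which libraries it holds is not stated, and treated ones may be among them. DRB inhibits the kinase that releases paused RNA polymerase II.

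Replication-dependent histone genes lie in clusters, lack introns and are transcribed mainly in S phase. Their mRNAs normally end in a stem-loop cut by a dedicated machinery and carry no poly(A) tail, so that selection with oligo(dT) captures little of them. Variant histone genes are scattered, and most have introns and give polyadenylated mRNAs throughout the cell cycle. H3f3a and H3f3b encode H3.3, H2afz and H2afv encode H2A.Z proteins, H2afx encodes H2AX, which is phosphorylated at DNA breaks, and H2afy and H2afy2 encode macroH2A.

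The libraries held 8.5 to 41.1 M reads (M, 1e+06) in genes. Ctcf mRNA was 11.6 to 13.2 RPKM in untreated and 4.04 to 4.23 RPKM in Adeno-Cre treated Ctcf fl/fl cells, and 3.76 RPKM in the treated Ctcf fl/fl Wapl fl/fl library. The Wapl transcript (Wapal) was 1.48 to 1.80 RPKM in untreated Wapl cells and 0.780 to 0.914 RPKM after OHT. Smc3 mRNA was 10.9 to 13.2 RPKM in the libraries labelled Smc3 deleted and 7.62 to 10.5 RPKM in their untreated partners, so it does not check that label. The first wild-type Adeno-Cre library stood apart: 4906 genes were listed at 0 in it, against 6526 to 8332 in the other 26. The 10 fibroblast marker genes summed to 9530 to 18400 RPKM over the libraries, lowest in the treated Ctcf fl/fl Wapl fl/fl one.

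Promoter sequences are shown for 5 Hist1 genes that recur in the results: Hist1h4h, with the largest log2 fold change of RPKM + 1 in each of the 5 treatments that had calls; Hist1h4i, another H4 gene with polyadenylated RNA; Hist1h4c, the highest in nascent RNA; Hist1h1c, the highest in polyadenylated RNA; and Hist1h2bj, which passed the test in 5 of the 6 comparisons. Each is the 250 bases before the RefSeq start site in GRCm38.p6, 5′ to 3′. Capitals mark 4 motifs, each searched on both strands. The first is TATAAA, where the basal transcription machinery binds. The second is CCAAT, which the factor NF-Y binds. The third, ATTTGCAT, is the octamer known from H2B promoters and bound by Oct-1. The last, AAACACA, is known from promoters of linker histone genes. The windows were chr13:23530794-23531043 (plus strand) for Hist1h4h, chr13:22041363-22041612 (minus strand) for Hist1h4i, chr13:23698459-23698708 (minus strand) for Hist1h4c, chr13:23738557-23738806 (plus strand) for Hist1h1c, and chr13:22042948-22043197 (plus strand) for Hist1h2bj.
Hist1h4h: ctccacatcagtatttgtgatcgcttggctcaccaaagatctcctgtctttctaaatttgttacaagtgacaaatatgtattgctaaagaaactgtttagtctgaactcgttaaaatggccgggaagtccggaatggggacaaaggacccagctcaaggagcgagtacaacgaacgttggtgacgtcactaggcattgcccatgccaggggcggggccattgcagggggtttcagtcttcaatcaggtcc
Hist1h4i: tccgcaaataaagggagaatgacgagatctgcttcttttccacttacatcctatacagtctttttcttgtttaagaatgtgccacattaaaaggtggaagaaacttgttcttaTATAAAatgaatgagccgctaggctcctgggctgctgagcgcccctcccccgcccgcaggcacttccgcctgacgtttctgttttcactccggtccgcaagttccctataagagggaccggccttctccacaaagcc
Hist1h4c: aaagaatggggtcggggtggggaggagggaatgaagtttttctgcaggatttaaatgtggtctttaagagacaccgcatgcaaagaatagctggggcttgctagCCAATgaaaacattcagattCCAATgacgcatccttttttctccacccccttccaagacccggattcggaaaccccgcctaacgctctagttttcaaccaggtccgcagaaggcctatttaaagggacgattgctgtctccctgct
Hist1h1c: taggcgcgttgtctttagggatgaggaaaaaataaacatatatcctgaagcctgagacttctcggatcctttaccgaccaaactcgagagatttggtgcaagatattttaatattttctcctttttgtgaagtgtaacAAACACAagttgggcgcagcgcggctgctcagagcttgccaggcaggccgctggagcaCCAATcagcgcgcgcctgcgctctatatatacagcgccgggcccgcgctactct
Hist1h2bj: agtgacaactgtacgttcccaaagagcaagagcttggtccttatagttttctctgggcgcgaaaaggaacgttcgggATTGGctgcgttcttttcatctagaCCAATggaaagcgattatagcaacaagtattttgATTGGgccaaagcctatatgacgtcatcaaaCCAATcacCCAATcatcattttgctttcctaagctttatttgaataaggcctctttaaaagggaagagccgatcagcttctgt
No letters are in capitals in the Hist1h4h window. Hist1h4i had 1 TATAAA, 137 bases before the start site, and Hist1h4c had CCAAT at 146 and 126 bases before it. Hist1h1c had AAACACA at 112 and CCAAT at 54 bases before the start, and Hist1h2bj had 5 CCAAT matches, 2 of them on the opposite strand. None of the printed matches overlap.

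Windows were found for 70 of the 78 genes. Among the 63 windows of replication-dependent genes, 82.5% held CCAAT, 46.0% TATAAA, 22.2% the octamer and 14.3% AAACACA. The shares among all 32851 windows were 33.8%, 12.4%, 1.60% and 6.25%. The motifs divided by histone type: CCAAT was in 17 of 17 H2B, 18 of 18 H2A and 6 of 6 H1 windows but in 3 of 12 H4 windows. AAACACA was in 5 of 6 H1 windows, and the octamer in 7 of 17 H2B and 7 of 18 H2A windows and in none of the H1, H3 and H4 windows. Of the 8 variant windows, 5 held CCAAT and 1 TATAAA. A match is a description of the letters only.

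Polyadenylated RNA of the replication-dependent genes came from a few members. Levels are given as RPKM, reads per kilobase of gene model and per 1e+06 reads, which are per length. Over the 27 libraries, 51 of the 68 genes averaged under 1 RPKM, and 5 averaged at least 10 RPKM: Hist1h1c (221), Hist1h2bc (130), Hist1h4h (40.7), Hist3h2a (16.8) and Hist1h4i. Hist1h1c, Hist1h2bc and Hist1h4h held between 77.2% and 89.6% of the summed RPKM of the 68 genes in each library. Hist2h3c2 led the replication-dependent H3 genes, at 5.32 RPKM. Among the variants, H3f3b averaged 98.0 RPKM and H2afj 69.4 RPKM. The members were unequal in length of their gene model: the shortest H4 genes were 311 bases, Hist1h4h 477, Hist1h2bc 726, Hist1h1c 1560 and Hist3h2a 1989 bases. For a gene of 311 bases, 1 read was worth 0.078 to 0.38 RPKM, so the low members rested on few reads.

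Genes were tested where at least 2 libraries reached 1 RPKM, which 42 of the 78 did: 33 replication-dependent and 9 variant genes. Of the 33, 15 reached 1 RPKM in no untreated library, and 14 of these in Adeno-Cre libraries only. Hist1h4k and Hist2h4 reached it in 1 untreated library each, where the filter needs 2. They too were tested only because of treated libraries, but are counted below among the 18 that reached it in an untreated library. Genes of both kinds had to differ to be tested, so the counts below describe the tested genes and are no support for a response of the family. Tests were limma's on log2(RPKM + 1) with Benjamini-Hochberg adjusted p-values over 12604 genes. Fold changes are on this scale, which understates the change of low genes. Replicates are clones, and the p-values measure the spread between them. In bulk RNA, fewer cells with a transcript and less of it per cell cannot be told apart.

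Adeno-Cre alone was given to wild-type cells, which have no floxed gene. There Hist1h4h, the H1 genes Hist1h1d and Hist1h1e, and the abundant Hist1h2bc and Hist3h2a rose. Of the 18 replication-dependent genes that reached 1 RPKM in an untreated library, 13 rose. So did 11 of the 15 that reached it in none and were tested only because of treated libraries. Hist1h4k, among the 13, was also tested only because of treated libraries. In all, 24 of the 33 tested rose and none fell, where 2.70% of all genes tested rose and 0.540% fell (3.24% in either direction). The median log2 fold change of the 33 was 1.12, beside 0.04 for all genes. By type, 7 of 8 H4, 5 of 6 H2A, 4 of 5 H1, 4 of 7 H2B and 4 of 7 H3 genes rose. By cluster, 23 of 28 Hist1 genes, 1 of 2 Hist3 genes and 0 of 3 Hist2 genes rose. Hist1 genes lie in 2 blocks on chromosome 13, and 7 of 7 tested genes of one and 16 of 21 of the other rose. Without the filter, 40 of the 61 replication-dependent genes above 0 in these libraries were higher in both Adeno-Cre libraries than in both untreated ones, where 27.5% of all genes were, and 2 were lower in both, where 16.2% of all genes were.

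Hist1h4h was 22.2 and 24.0 RPKM in the untreated wild-type libraries and 252 and 169 RPKM after Adeno-Cre. This is a rise of 9.10-fold in the means, with a log2 fold change of 3.10 ± 0.31 (SE, n = 2 and 2, limma adjusted p = 2.73e-05). The next largest values were of H4 genes near 0 in untreated cells, Hist1h4a and Hist1h4j. They passed the filter through Adeno-Cre libraries only, so their values are a description with no test. Hist1h4a had 1 and 2 reads (0.141 and 0.273 RPKM) untreated and 25 and 33 reads (3.14 and 4.35 RPKM) treated, with a log2 fold change of 1.97. Hist1h4j had 4 and 2 reads untreated and 32 and 23 treated, with a log2 fold change of 1.67. The treated and untreated libraries of Hist1h4h and of both these genes did not overlap. H4 copies are nearly identical in sequence, the assignment of reads that match several copies is not stated in any source used here, and values of single H4 genes are uncertain. The other 21 genes that rose had log2 fold changes of 0.54 to 1.65.

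The linker histone genes Hist1h1d and Hist1h1e rose too. Hist1h1d was 1.27 and 2.57 RPKM untreated and 7.47 and 7.39 RPKM after Adeno-Cre, with a log2 fold change of 1.57 ± 0.24 (limma adjusted p = 0.00191). Hist1h1e went from 1.86 and 2.69 RPKM to 6.28 and 6.21 RPKM (log2 fold change 1.16 ± 0.16, limma adjusted p = 0.000684). The groups did not overlap for either gene. Hist1h1c was 234 and 267 RPKM untreated and 433 and 452 RPKM treated, with the treated libraries above the untreated ones, and had a log2 fold change of 0.82 ± 0.23 that missed the threshold (limma adjusted p = 0.0587) but passed it with the clone as a block (adjusted p = 0.0361). Hist1h2bc was 143 and 129 RPKM untreated and 271 and 206 RPKM treated (log2 fold change 0.80 ± 0.19, limma adjusted p = 0.0244). Hist3h2a went from 18.5 and 17.02 RPKM to 36.9 and 27.8 RPKM (log2 fold change 0.82 ± 0.21, limma adjusted p = 0.0423).

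None of the 9 variants passed in wild-type cells without a block (limma; 2 at an unadjusted p under 0.05, and 0 with voom). With the clone as a block, which pairs the treated and untreated library of a clone, 5 of them rose: H2afj (limma adjusted p = 0.00154), H3f3a (0.0211), H2afx (0.0255), H2afz (0.0386) and H3f3b (0.0390). Shares of all genes, here and below, are of the fit without a block. None is given for the block fit, so counts from it have no background beside them. H2afj, an H2A variant, was 96.7 and 99.3 RPKM untreated and 225 and 199 RPKM treated, with a log2 fold change of 1.10 ± 0.35 (limma adjusted p = 0.0904 without the block). H3f3b was 102 and 134 RPKM untreated and 164 and 162 RPKM treated. H2afy was 46.4 and 45.7 RPKM untreated and 45.2 and 46.7 RPKM treated, and these overlapped.

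The number of genes called changed with the settings. With a pseudocount of 0.1, 6 of the 33 passed. With the trend of each library with gene length removed, 5 passed, and the median was 0.64 in place of 1.12. With limma's voom on read counts recovered from the RPKM values, 14 of 37 passed. Leaving out a library left between 7 and 21: 7 without the first Adeno-Cre library, 7 without the first untreated one and 8 without the second untreated one. Hist1h4h passed under every one of these. Genes of the interferon response moved with the same comparison: 18 of the 27 tested of that list rose, and their summed level was 234 to 328 RPKM untreated and 1190 to 2140 RPKM after Adeno-Cre. None of the 25 S phase genes and none of the 8 mitosis genes tested passed. The part of these in the histone result was not tested.

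**Figure D1:**
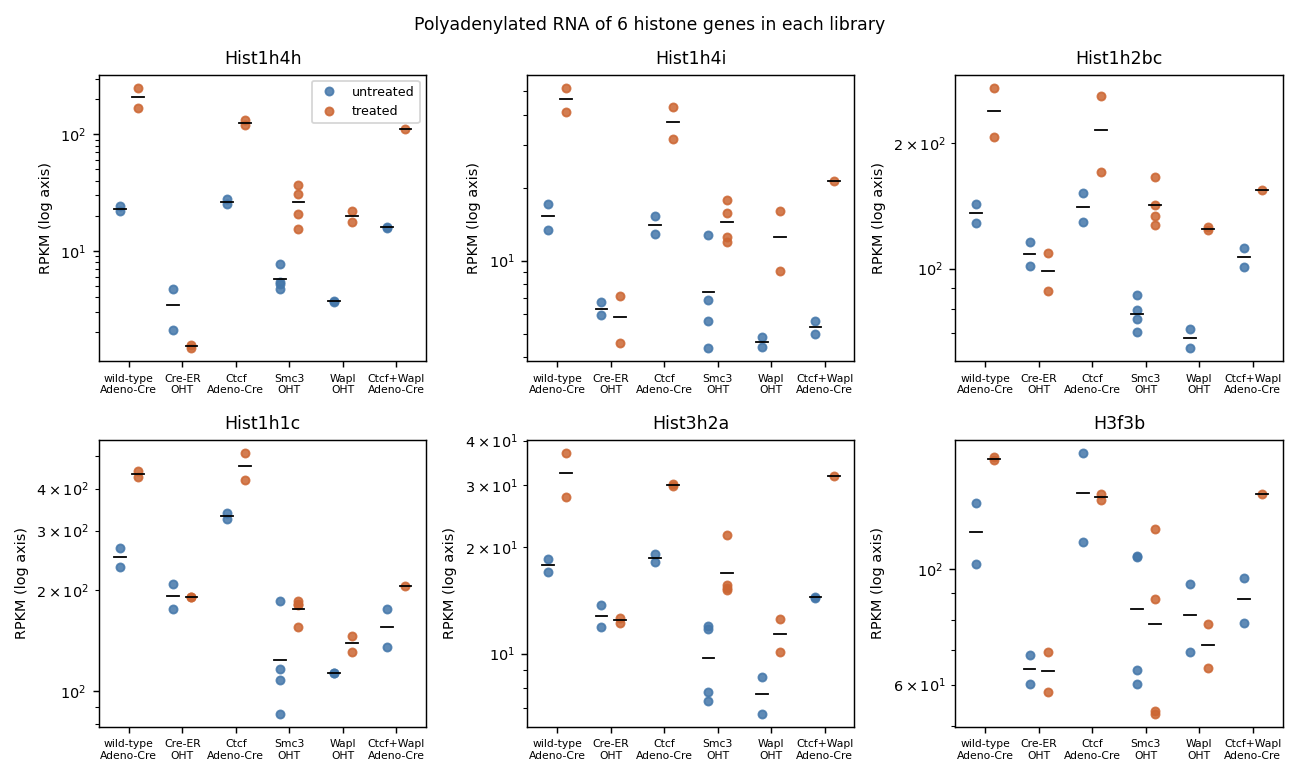
RPKM (log axis) of 6 histone genes in each library, with untreated (blue) and treated (orange) libraries side by side for each genotype; bars are group means. Hist1h4h lies at 1.46 to 4.74 RPKM in Cre-ER controls and above 100 RPKM in the Adeno-Cre libraries, while H3f3b overlaps between treated and untreated libraries of the Ctcf, Smc3 and Wapl cells.

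OHT in Cre-ER control cells gave no call. None of the 33 replication-dependent and none of the 9 variant genes passed limma (0.00% of all genes did; 1 histone gene, lower, had an unadjusted p under 0.05, and voom called 0). The median log2 fold change of the 33 was 0.05. The gene with the small p was Hist1h4h, at 4.74 and 2.11 RPKM untreated and 1.46 and 1.57 RPKM after OHT, with a log2 fold change of -0.75 ± 0.31 (limma adjusted p = 1). Hist1h2bc was 101 and 116 RPKM against 88.6 and 109 RPKM, and these ranges overlapped. Without the filter, 10 of 54 replication-dependent genes were higher in both OHT libraries and 5 were lower, where 11.0% and 11.1% of all genes were. Summed interferon response genes were 289 to 315 RPKM untreated and 312 to 344 RPKM after OHT.

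Ctcf deletion by Adeno-Cre came with a rise of 17 of the 33 replication-dependent genes, all of them in Hist1, and none fell. They were 10 of the 18 genes that reached 1 RPKM in an untreated library and 7 of the 15 that reached it in none. The 15, and Hist1h4k among the 10, were tested only because of treated libraries, so their part is no support for a rise. Of all genes tested, 5.04% rose and 2.63% fell (7.66% in either direction). The median of the 33 was 0.87 (1.05 over the 18 and 0.753 over the 15), beside 0.045 over all genes. Of the types, 4 of 5 H1, 5 of 8 H4, 4 of 7 H3, 2 of 6 H2A and 2 of 7 H2B genes rose. Hist1h4h was 25.2 and 27.8 RPKM untreated and 133 and 119 RPKM after deletion, a log2 fold change of 2.21 ± 0.31 (limma adjusted p = 0.000139). The next were Hist1h4d, at 1.17 and 0.146 against 4.22 and 2.96 RPKM (log2 fold change 1.53 ± 0.35, limma adjusted p = 0.00921), and the H2A gene Hist1h2ab, at 1.50 and 2.42 against 6.47 and 7.65 RPKM (log2 fold change 1.46 ± 0.33, limma adjusted p = 0.00893). The groups did not overlap for any of these 3. Without the filter, 40 of 62 replication-dependent genes were higher in both treated libraries, where 25.6% of all genes were.

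H2afy3, listed as a non-coding RNA, was the 1 variant gene called, and it fell: 3.63 and 3.42 RPKM untreated, 1.64 and 1.52 RPKM after Ctcf deletion, a log2 fold change of -0.81 ± 0.22 (limma adjusted p = 0.0283). The macroH2A gene H2afy2 was 10.9 and 12.2 RPKM against 6.81 and 8.03 RPKM (log2 fold change -0.58 ± 0.20, limma adjusted p = 0.0977). In the fit with the clone block, H2afy2 fell (adjusted p = 0.0278), and H2afx and H2afj rose (adjusted p = 0.0109 and 0.0410). H3f3b, at 168 and 113 against 139 and 136 RPKM, overlapped between the groups.

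The same virus in wild-type cells is the control for the Ctcf result. Of the 42 genes, 1 differed, Hist1h4j, where 0.722% of all genes were lower and 0.738% higher in this contrast (1.46% in either direction). Hist1h4j was among the genes tested only because of Adeno-Cre libraries, so its difference is no support for one between the genotypes. Its reads were higher after Adeno-Cre in wild-type cells, given above, but it had 2 and 4 reads untreated and 4 and 3 reads treated in Ctcf fl/fl cells (log2 difference -1.63 ± 0.36, limma adjusted p = 0.0240). That call was lost with voom (adjusted p = 0.477), with the length trend removed (adjusted p = 0.136) and when any of 5 libraries was left out (the first wild-type Adeno-Cre, the second wild-type untreated, either Ctcf Adeno-Cre or the second Ctcf untreated one). For Hist1h4h the log2 difference was -0.90 ± 0.44 (limma adjusted p = 0.589). In the Ctcf comparison itself, 1 of 27 interferon response genes rose; their summed level was 416 to 1100 RPKM untreated and 1110 to 1120 RPKM treated. The number of histone genes called in it went from 18 to 8 with a pseudocount of 0.1, to 8 without the first untreated and to 10 without the second Adeno-Cre library.

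Deletion of Ctcf and Wapl together, with 1 treated library assumed to vary like the other groups, gave 18 of 33 replication-dependent genes higher and none lower, where 10.5% of all genes rose and 5.34% fell (15.8% in either direction). The median of the 33 was 0.91, beside 0.175 over all genes. It was 1.00 over the 18 that reached 1 RPKM in an untreated library and 0.802 over the 15 that reached it in none. The 15, and Hist1h4k and Hist2h4 of the 18, were tested only because of treated libraries. Their part of the count is no support for a rise. Both tested Hist3 genes and 16 of 28 Hist1 genes rose, and 0 of 3 Hist2 genes did. Hist1h4h was 15.8 and 16.0 RPKM untreated and 110 RPKM in the treated library (log2 fold change 2.72 ± 0.38, limma adjusted p = 9.17e-05). Hist1h4i was 5.62 and 4.98 RPKM against 21.3 RPKM (log2 fold change 1.83 ± 0.41, limma adjusted p = 0.00503). Hist1h4k was 0.175 and 0 RPKM against 2.54 RPKM (log2 fold change 1.71). It reached 1 RPKM in only 1 untreated library and passed the filter through treated ones, so its value is a description with no test. With the length trend removed 9 passed, and 10 with a pseudocount of 0.1. Without the filter, 49 of 61 replication-dependent genes were above both untreated libraries, where 52.0% of all genes were, and 7 were below, where 21.9% were. The treated library also had 19 of 27 interferon response genes higher, summed to 1540 RPKM against 142 to 157 RPKM. Of the 10 fibroblast markers, 3 fell in it: Pdgfra (log2 fold change -1.97), Pdgfrb (-1.39) and Col1a2 (-1.15). The median of the 10 was -1.14, and they summed to 9530 RPKM against 10500 to 14300 RPKM. Of 5 endothelial markers 1 rose and 1 fell, with a sum of 10.1 RPKM against 20.7 to 39.7 RPKM. Of 5 neural markers 1 rose, Tubb3, with a sum of 150 RPKM against 54.5 to 74.9 RPKM. Tubb3 rose too with Ctcf deletion (sum 49.7 to 51.3 RPKM untreated and 180 to 185 RPKM treated) and with Adeno-Cre in wild-type cells (78.4 to 87.6 and 150 to 191 RPKM). The part of these in the histone result was not tested. None of the 9 variants passed (limma; 2 at an unadjusted p under 0.05, voom 0). With the clone as a block, untreated clone 3 has no treated partner. Block results of both deletions, here and below, thus rest on the 1 pair of clone 4, with the spread taken from other genotypes. In that fit H2afx had a log2 fold change of 0.74.

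Against Adeno-Cre in wild-type cells, no histone gene differed in the cells with both deletions (limma; 2.15% of all genes were higher and 1.72% lower, 3.87% in all). Of the replication-dependent genes, 1 was higher and 1 lower at an unadjusted p under 0.05, and of the variants 2 were lower. Voom called 0. With the clone as a block, the side of both deletions rests on the 1 pair of clone 4. In that fit the variants H2afj, H2afz and H3f3a were lower, by log2 differences of -1.21, -1.14 and -0.98. The log2 difference of Hist1h4h was -0.38 ± 0.50 (limma adjusted p = 0.776).

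The Smc3 cells, labelled as deleted, had 12 of 33 replication-dependent genes higher and none lower, where 9.37% of all genes rose and 5.60% fell (15.0% in either direction). The median of the 33 was 0.45, beside 0.07 over all genes. Of the 18 that reached 1 RPKM in an untreated library, 11 rose, with a median of 0.731 over the 18. Of the 15 that reached it in none, 1 rose, with a median of 0.256 over the 15. These 15, and Hist1h4k and Hist2h4 of the 18, were tested only because of treated libraries. The 12 comprised 4 of 5 H1, 3 of 7 H2B, 2 of 8 H4, 2 of 7 H3 and 1 of 6 H2A genes. Hist1h4h was 7.68, 4.75, 5.40 and 5.17 RPKM untreated and 15.6, 20.9, 30.7 and 37.0 RPKM after OHT, with all 4 treated libraries above all 4 untreated ones (log2 fold change 1.95 ± 0.22, limma adjusted p = 1.55e-05). Hist1h4i was 12.8, 4.35, 6.85 and 5.63 RPKM untreated and 11.9, 15.8, 17.7 and 12.5 RPKM treated. Clone 1 did not rise, and the groups overlapped (log2 fold change 0.96 ± 0.24, limma adjusted p = 0.00938). Hist1h2bj, an H2B gene, was 0, 0.170, 1.00 and 0.433 RPKM untreated and 1.79, 1.05, 1.82 and 1.34 RPKM treated (log2 fold change 0.87 ± 0.20, limma adjusted p = 0.00664). The treated libraries lay above the untreated ones, by little. Without the filter, 11 of 56 replication-dependent genes were higher in all 4 treated libraries than in all 4 untreated ones, where 7.65% of all genes were.

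Among the abundant members, Hist1h2bc was 86.5, 75.7, 70.5 and 79.4 RPKM untreated and 127, 142, 134 and 166 RPKM after OHT, with no overlap (log2 fold change 0.85 ± 0.13, limma adjusted p = 0.000249). Hist1h1c rose from 185, 108, 117 and 85.9 RPKM to 155, 181, 181 and 185 RPKM, with overlap set by clone 1 (log2 fold change 0.55 ± 0.16, limma adjusted p = 0.0276). None of the 9 variants passed (0 at an unadjusted p under 0.05, voom 0), and their median was -0.03. In the same comparison 4 of 25 S phase genes fell, among them Cdt1, Mcm2, Mcm3 and Mcm7 of replication licensing, and 1 rose (Ccne1). Interferon response genes were 203 to 423 RPKM untreated and 357 to 658 RPKM treated, with 1 of 27 higher. Macrophage markers summed to 63.2 to 2160 RPKM untreated and 28.6 to 430 RPKM treated, and 0 of 15 passed. Of 5 muscle markers tested, 4 rose, from a sum of 16.1 to 64.0 RPKM to one of 40.0 to 126 RPKM. Of 10 fibroblast markers 1 fell (Col1a1), from a sum of 13600 to 17500 RPKM to one of 10000 to 14300 RPKM. Of 5 endothelial markers 2 fell, from a sum of 12.3 to 22.0 RPKM to one of 1.48 to 11.0 RPKM. Of 5 neural markers 3 fell and 1 rose, with sums of 36.6 to 44.4 and 27.3 to 52.4 RPKM. The part of these in the histone result was not tested.

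Wapl deletion left 4 of 33 replication-dependent genes higher and none lower, where 1.50% of all genes rose and 0.928% fell (2.43% in either direction). Hist1h4h was 3.70 and 3.67 RPKM untreated and 17.8 and 21.9 RPKM after OHT (log2 fold change 2.15 ± 0.31, limma adjusted p = 0.000903). Hist1h2bj was 0 and 0.318 RPKM against 2.19 and 2.51 RPKM (log2 fold change 1.54 ± 0.29, limma adjusted p = 0.00726). Hist1h2bc was 71.7 and 64.5 RPKM against 124 and 126 RPKM (log2 fold change 0.86 ± 0.19, limma adjusted p = 0.0168). The other was Hist1h1e, at 0.277 and 0.407 against 1.27 and 1.11 RPKM (log2 fold change 0.71 ± 0.16, limma adjusted p = 0.0224). With the clone as a block, 10 histone genes passed, with no share of all genes beside them. Leaving out a library left 1 to 3: 1 without the first untreated or the first OHT library, and 2 without the second untreated one. None of the 9 variants passed (0 at an unadjusted p under 0.05, voom 0). Without the filter, 22 of 49 replication-dependent genes were higher in both treated libraries, where 22.4% of all genes were. Of 25 S phase genes, 1 fell (Cdt1). Interferon response genes summed to 390 to 580 RPKM untreated and 724 to 766 RPKM treated, with 0 of 27 called. Macrophage markers summed to 4190 to 5310 RPKM untreated and 1090 to 3310 RPKM treated. Their part was not tested.

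The Smc3 and Wapl results share the Cre-ER controls when set against OHT alone. Of all genes, 0.468% were higher in the Smc3 contrast (1.23% in either direction). In the Wapl contrast 0.111% were higher and 0.0317% lower (0.143% in either direction). Hist1h4h differed in both, by 2.70 ± 0.38 for Smc3 (limma adjusted p = 0.00168) and 2.90 ± 0.44 for Wapl (limma adjusted p = 0.00635) on the log2 scale. Hist1h2bc differed for Smc3 by 0.99 ± 0.23 (limma adjusted p = 0.0382). Leaving out any library other than those of Smc3 clone 1 reduced the 2 calls of the Smc3 contrast to 1. With the clone as a block, Hist1h3b (adjusted p = 0.0298) and Hist3h2a (0.0157) also differed for Smc3, and Hist1h2bj (0.0395) and Hist1h2bc (0.0298) for Wapl. Voom lost the Hist1h4h calls (adjusted p = 0.0515 for Smc3 and 0.311 for Wapl), with larger differences of 3.19 and 3.43. Without the untreated library of Cre-ER clone 2 the Wapl difference was 2.45 (adjusted p = 0.0547). Each difference holds the log2 fold change of -0.75 in the Cre-ER controls, which did not pass on its own, beside 1.95 in the Smc3 and 2.15 in the Wapl cells.

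**Figure D2:**
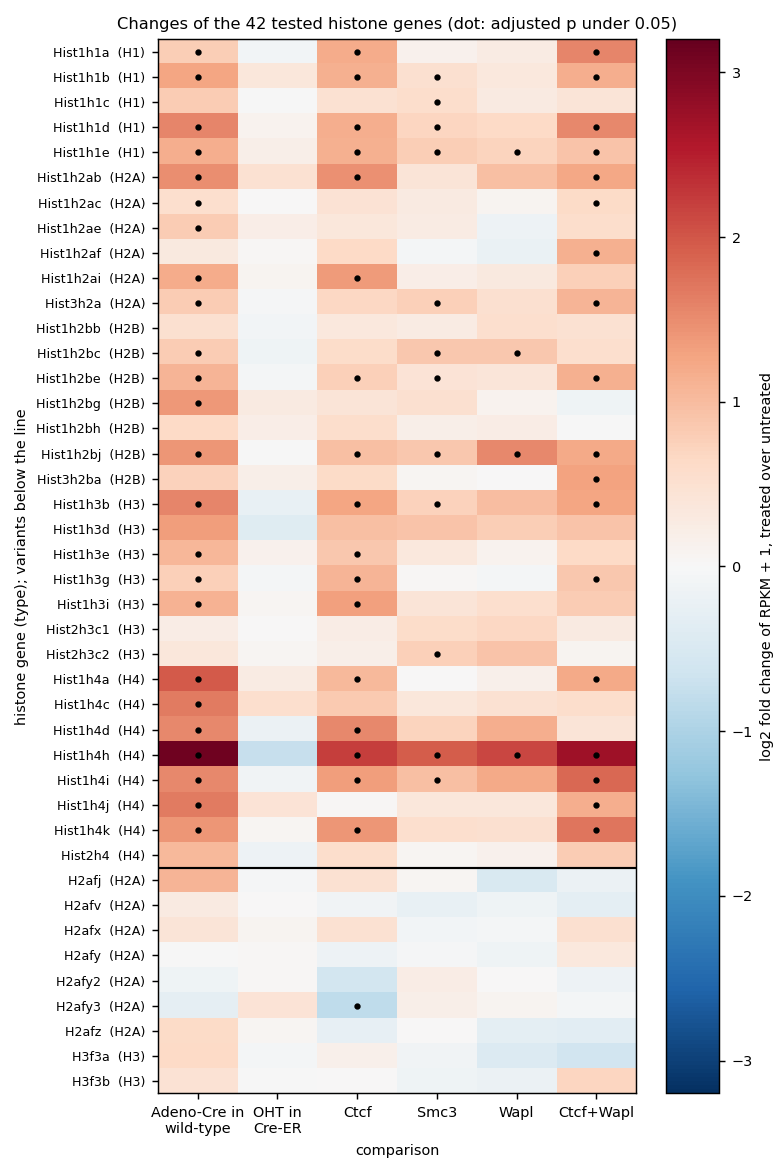
Log2 fold change of RPKM + 1 (treated over untreated) of the 42 tested histone genes in the 6 comparisons; red is higher, blue lower, dots mark a limma adjusted p under 0.05, and the line separates the 9 variants. Hist1h4h is the darkest row, from 1.95 to 3.10 in 5 comparisons and -0.75 with OHT in Cre-ER cells, while 1 dot lies among the variants.

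Hist1h4h had a log2 fold change of 1.95 or more in each comparison labelled as a deletion or made with Adeno-Cre, the largest among the 42 genes on this scale. Its ratio of means was 9.10 in wild-type, 4.76 in Ctcf, 6.95 in Ctcf and Wapl, 4.53 in Smc3 and 5.39 in Wapl cells. By that ratio, which does not damp low values, genes near 0 untreated ranked above it: Hist1h4a in wild-type (18.1), Hist1h3g in Ctcf (24.9), Hist1h4k in Ctcf and Wapl (29.1), Hist1h3b in Smc3 (12.9) and Hist1h2ab in Wapl cells (21.2). Its level in untreated cells also differed by genotype, from 2.11 RPKM in a Cre-ER control to 27.8 RPKM in a Ctcf fl/fl library. In the alternatives run, these 5 calls passed the threshold each time (log2 fold changes of 2.01 to 2.39 for Wapl and 2.50 to 3.39 in wild-type cells).

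Levels of some variants are given by genotype as a description. H3f3a was 0.129 to 1.21 RPKM in the 12 Smc3 and Wapl libraries and 7.34 to 48.3 RPKM in the other 15, with no overlap. H3f3b, which encodes the same H3.3 protein, was 52.8 to 120 RPKM in the 12 and 58.1 to 168 RPKM in the 15. H2afz was 0.194 to 1.24 RPKM in the 12 and 0.387 to 6.90 RPKM in the 15. H2afy3 was 0.0995 and 0.0892 RPKM in untreated and 0.0552 RPKM in treated Ctcf fl/fl Wapl fl/fl cells, and 1.52 to 4.20 RPKM in all others. Whether genotype, clone or processing set these levels cannot be told apart.

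Of 20 tested genes of histone mRNA transcription and 3′ end formation, 2 rose with Ctcf deletion, where 5.04% of all genes did, and 4 with both deletions, where 10.5% did. None passed in the other 4 comparisons. These shares are of the fit without a block, and none is given for the block fit. In the clone block fit, 5 rose with Ctcf deletion, 3 with both and 4 with Adeno-Cre in wild-type cells. Lsm11, a subunit of the U7 snRNP that directs the cut at histone 3′ ends, rose with Ctcf deletion (log2 fold change 0.82 ± 0.13, limma adjusted p = 0.000593) and with both deletions (0.52 ± 0.16, limma adjusted p = 0.0389, or 0.0571 with the block). Sympk, of the cleavage complex, rose in the same comparisons (0.48 ± 0.13, limma adjusted p = 0.0282, and 0.77 ± 0.16, limma adjusted p = 0.00300). In the contrast with the wild-type virus control, Lsm11 was the 1 gene of the 20 that differed with Ctcf deletion (0.88 ± 0.19, limma adjusted p = 0.0188). None differed with both deletions (limma; 5 higher and 1 lower at an unadjusted p under 0.05), and with the block 1 did, Sympk (adjusted p = 0.0186).

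Of 10 genes of histone mRNA decay, Zcchc6, a uridylyltransferase, rose with Ctcf deletion (0.72 ± 0.20, limma adjusted p = 0.0360) and with both deletions (0.97 ± 0.25, limma adjusted p = 0.0130). Dis3l2, an exonuclease for uridylated RNA, rose with both deletions (0.56 ± 0.15, limma adjusted p = 0.0146) and in the Smc3 cells (0.30 ± 0.09, limma adjusted p = 0.0230). Neither differed from Adeno-Cre in wild-type cells or from OHT in Cre-ER cells in a way that passed, except Zcchc6 for Ctcf with the block (adjusted p = 0.0313). H1f0, the linker histone of resting cells, rose with Ctcf (0.76 ± 0.19, limma adjusted p = 0.0147), Wapl (0.75 ± 0.19, limma adjusted p = 0.0364) and both deletions (1.12 ± 0.23, limma adjusted p = 0.00238). With Adeno-Cre in wild-type cells its log2 fold change was 0.64 ± 0.19 (limma adjusted p = 0.0642, or 0.00512 with the block), and no difference from the virus or OHT controls passed (adjusted p of 0.43 to 1.00 without and 0.0585 to 0.751 with the block).

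Nascent RNA gave another picture of the same genes. Values are TPM, per length, scaled to a column total of 200000. In the wild-type column, whose libraries are not stated and may include treated ones, 49 of the 60 replication-dependent genes were above the 90th percentile of all 20282 genes, and their median of 77.6 TPM stood beside 2.21 TPM for all genes. In polyadenylated RNA, as the mean of the 4 untreated wild-type and Cre-ER libraries, 46 of the same 60 were under 1 RPKM. Both held for 35 of them. Of all 2029 genes above that percentile of nascent RNA, 300 were under 1 RPKM. Hist1h4c had 1775 TPM of nascent RNA and 0.211 RPKM of polyadenylated RNA, and Hist2h2bb, an H2B gene, had 503 TPM and 0.0448 RPKM. Hist1h1c was high in both, at 419 TPM and 221 RPKM.

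The 10 variants had median percentiles of 82.2 in nascent and 82.9 in polyadenylated RNA, and 5 were above the 90th percentile of nascent RNA. H3f3b (333 TPM) and H2afx (108 TPM) were high in nascent RNA. H2afy, at 6.06 TPM and 44.4 RPKM, was lower than Hist1h4c in nascent and higher in polyadenylated RNA.

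**Figure D3:**
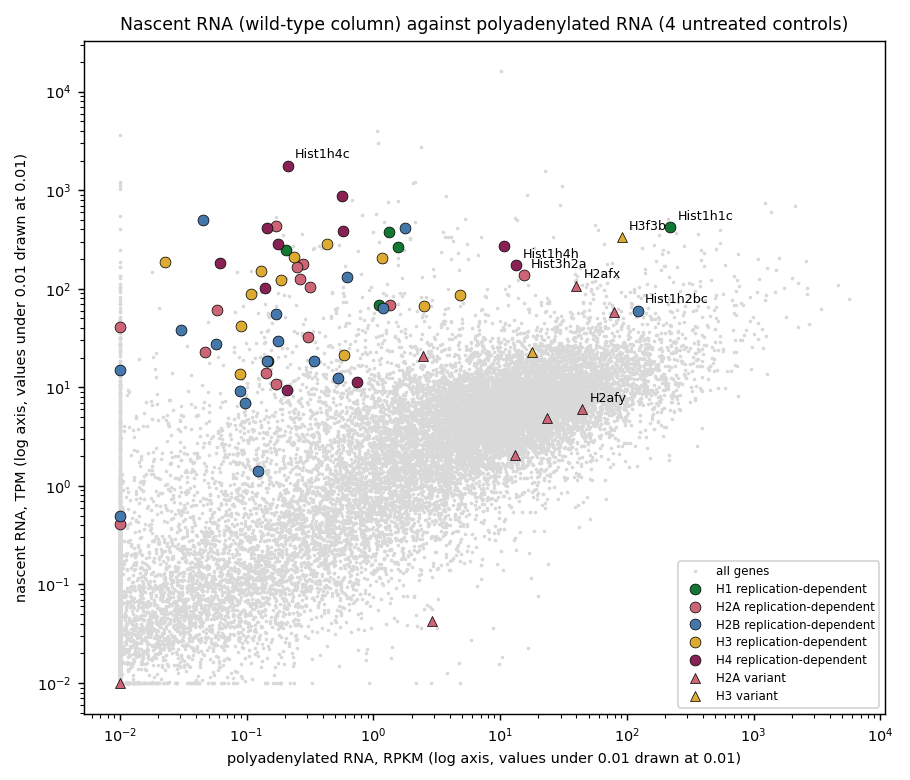
Nascent RNA (TPM, wild-type column) against polyadenylated RNA (RPKM, mean of 4 untreated control libraries) on log axes, for all genes (grey) and the 70 histone genes (circles replication-dependent, triangles variant, coloured by type). Most circles lie at the upper left, with Hist1h4c at 1775 TPM and 0.211 RPKM.

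In Ctcf fl/fl Wapl fl/fl cells, the pooled Adeno-Cre column was above the pooled untreated column for 59 of 60 replication-dependent genes, and at least 2-fold for 33. Of all genes above 0 in both columns, 21.0% were above and 5.37% at least 2-fold above. The median ratio was 2.05 for the 60 and 0.592 for all genes. There is 1 column per condition, so these ratios have no replicate check, and with no virus control among these columns, Adeno-Cre and the deletions cannot be told apart. Near-identical copies may share reads in the pooled columns, so these counts, and those by type, need not be of separate genes. The 7 H2B genes with a model of 380 bases had ratios of 1.69 to 1.96. The part of shared reads was not tested. By type, 10 of 11 H4, 8 of 12 H3, 7 of 17 H2B, 6 of 14 H2A and 2 of 6 H1 genes were at least 2-fold above. Hist1h4c went from 2130 to 6117 TPM, Hist1h4h from 440 to 991 TPM and Hist3h2a from 131 to 586 TPM. Hist1h1b, at 34.6 against 28.7 TPM, was the 1 gene below.

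The replication-dependent genes made up 7.27% of the TPM total untreated and 17.4% after Adeno-Cre. How reads that match several copies enter these sums is not stated. TPM are shares of a total, so a larger share of these genes leaves a smaller one for the others. How much of the median ratio of 0.592 over all genes comes from this was not tested. Of the 8 variants above 0 in both columns, 3 were above 1 in ratio. H2afx went from 61.2 to 175 TPM, H3f3b from 474 to 321 TPM and H3f3a from 22.3 to 9.91 TPM. Polyadenylated and nascent RNA were measured on other clones of this genotype.

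With DRB, the replication-dependent genes had a median of 0.253 of their Adeno-Cre value, and 42 of the 54 genes above 0 in both columns were at least 2-fold lower, where 46.7% of all genes were. The median of all genes was 0.545. Above a ratio of 1 were 2 of the 54, and 29.8% of all genes. After 1 d without DRB, 44 of 54 were above their DRB value (67.7% of all genes), 16 at least 2-fold (36.5%) and 1 at least 2-fold below it (10.1%). Over the 58 genes above 0 in both columns, the median after removal was 0.352 of the Adeno-Cre value, beside 0.927 for all genes. Hist1h4c was 1844 TPM with DRB and 2346 TPM after removal, and Hist1h4h 60.3 and 246 TPM. H2afx went the other way, from 175 TPM to 614 TPM with DRB and 341 TPM after removal. H3f3b went from 321 to 32.9 TPM with DRB. Hist3h2a was 586, 587 and 646 TPM in the 3 columns.

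Ratios of single genes between these columns are uncertain, because near-identical copies behaved differently in the pooled columns. Among the 7 H2B genes with a model of 380 bases, the pooled untreated column ranged from 189 to 262 TPM (coefficient of variation 0.121), whereas the DRB column ranged from 0 to 49.2 TPM (1.15) and the wild-type column from 9.20 to 64.0 TPM (0.637). Hist1h4j and Hist1h4k were 506 and 505 TPM in the pooled untreated and 0 TPM with DRB, while 1 read of the shortest H4 genes was worth 4.62 TPM in the DRB column. In that column Hist1h4c had 399 reads and H2afx 579. How multiply matching reads were assigned is not stated in any source used here, and its part in the DRB ratios was not tested.

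**Figure D4:**
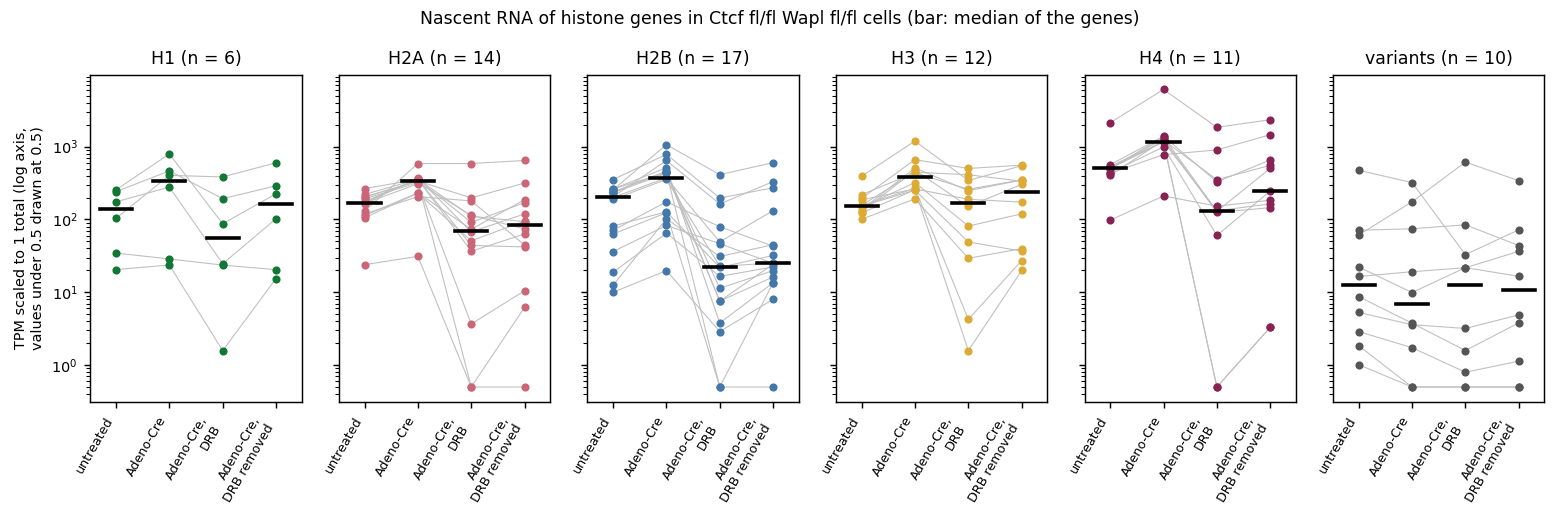
Nascent RNA (TPM scaled to 1 total, log axis) of the 70 histone genes in the 4 Ctcf fl/fl Wapl fl/fl columns, by histone type with the 10 variants apart; grey lines join a gene and bars are medians over genes. The medians of all 5 replication-dependent types rise from untreated to Adeno-Cre (505 to 1176 TPM for H4) and are lower with DRB, where the points spread widely.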

How the data were processed

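The analysis used RNA-seq and GRO-seq of quiescent fibroblasts (64 ChIP-seq samples: not analysed here). Expression by RNA-seq was deposited by the authors as RPKM for 27 libraries in 12 groups, with 2 further libraries in a table normalized apart. GRO-seq was deposited as TPM with column totals of 200000 or 100000, in pooled columns for the untreated and Adeno-Cre conditions; the DRB columns were multiplied by 2.0. The RPKM column beside wild-type GRO-seq is the mean of 4 untreated RNA-seq libraries, and the source libraries of its TPM are not given in the sources used here. Per the submitters' processing notes, processing named HTSeq, bedtools, MACS 1.4.2, Bowtie 0.12.5 and TopHat (1.4.1, 1.3.1) with mm9; roles, strand use and the treatment of multiply matching reads are not given in the sources used here.

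Histone genes and gene lists were chosen with earlier results of these data known. Tests (limma 3.58.1, R 4.3.3) took genes at 1 RPKM or more in at least 2 libraries, on log2(RPKM + 1), a pseudocount of 1, with 1 mean per group (15 residual degrees of freedom, trend and robust options, Benjamini-Hochberg adjustment over 12604 genes, threshold 0.05). Named genes were, by rule, the member with the highest mean RPKM of each type and class, the 3 members with the largest changes past the threshold in each comparison, other members past it by fold change or count, and at most 4 called genes per list. H2afy, H2afy2, H2afz, H3f3a, the members named from GRO-seq and those named below the threshold were chosen after their values were seen. Reads were recovered from whole steps of the RPKM values for 18155 of 18155 genes above 0 in at least 3 libraries (tolerance 0.02 reads). The libraries held 8.5 to 41.1 M reads in genes; the depth of the pooled GRO-seq columns is unknown. The code was tested on simulated data for Adeno-Cre in wild-type cells: of 11916 genes, 98.0% of those changed 4-fold (log2 change of 2) and 30.6% of those changed 2-fold were recovered, with 6 false calls. Only genes with a mean above 2 RPKM were changed, and counts had a dispersion of 0.05 and no clone effect. These shares therefore do not apply to the low histone genes. Treated and untreated libraries of a clone correlated in their deviations from group means at 0.49 to 0.70 (4 Smc3 pairs), 0.68 (Ctcf), 0.47 (Wapl), 0.76 (wild-type) and -0.20 (Cre-ER), where clone numbers come from the labels. Alternatives were a pseudocount of 0.1, no filter, median-of-ratios rescaling, removal of each library's length trend, the clone as a block, voom on recovered reads and leaving out each library. Promoters are RefSeq windows of GRCm38.p6. The number of unused columns of per-sample values was 0.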

Additional observations from a re-analysis of the deposited data

Results flagged for a closer look

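In the 4 Smc3 libraries after OHT, the lowest value of Hist1h1c, 155 RPKM in clone 1, and the highest of Hist3h2a, 21.7 RPKM in clone 3, lay far from the other 3 of the group. Of 28 such groups of 4 examined, 2 were marked, and chance marks about 1 in 20. Differences between comparisons passed the test for Hist1h4h in Smc3 cells against Cre-ER controls (2.70 on the log2 scale) and in Wapl cells against the same controls (2.90), for Hist1h2bc in Smc3 cells against Cre-ER controls (0.99), and for Hist1h4j in Ctcf fl/fl against wild-type cells with Adeno-Cre (-1.63), a gene that reached 1 RPKM in Adeno-Cre libraries only. The separate RNA-seq table, used in no comparison, held 2 libraries with the same labels: Adeno-Cre treated clone 3 of the cells floxed for Ctcf and Wapl. Hist1h4h was 297 RPKM in one and 10.3 RPKM in the other. Of the 68 replication-dependent genes 58 were higher in the first and 2 in the second, with a median ratio of 7.14 over the 45 above 0 in both, and of the 10 variants 9 were higher in the first with a median ratio of 2.63. No share or ratio over all genes is given beside these. A difference of the histone genes and one of the whole library thus cannot be told apart. The name of that table speaks of serum stimulation. The treatment label of both libraries names no serum, so which of them, if any, received it is not stated.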

How the results depend on the processing

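Counts of histone genes called are given as the reported value and then the alternative. For Adeno-Cre in wild-type cells, 24 became 6 with a pseudocount of 0.1, 5 with the length trend removed, 14 with voom, which was added after seeing the data, and 7 to 21 on leaving out a library. For Ctcf deletion, 18 became 8 with a pseudocount of 0.1, and 8 to 13 without a library. For Ctcf and Wapl deletion, 18 became 10 and 9 with the pseudocount and the length trend, and 14 to 16 without a library. For Smc3, 12 ranged from 8 to 14 without a library. For Wapl, 4 became 10 with the replicate block by clone, and 1 to 3 without a library. In the Ctcf difference, 1 became 0 with the pseudocount, the length trend and voom, 2 with no filter, and 0 to 1 without a library. In the Smc3 difference, 2 became 1 with no filter and with voom, 4 with the replicate block, 4 with the block and Cre-ER clones crossed (also added later), and 1 to 3 without a library. In the Wapl difference, 1 became 2 with the length trend, 3 with the replicate block, 4 with the crossed block, 0 with voom, and 0 to 1 without a library. For both deletions against wild-type Adeno-Cre, 0 became 1 with no filter and 3 with the replicate block, and stayed 0 without a library. With the columns as deposited, the median DRB ratio of the replication-dependent genes was 0.126, not 0.253, by construction of the scaling. The causes of the other changes were not tested. No call of a single gene reversed its direction under any of these settings. Of 80 single-gene calls, 77 still passed with the clone block, 58 with voom, and 43 each with the pseudocount of 0.1 and with the length trend removed. The number of clones and the few reads of short, low histone genes limit these results.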
